A study of Mus musculus with 8 samples.

Results

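The cyclin-dependent kinase inhibitor genes described here are Cdkn1a, Cdkn1b, Cdkn1c, Cdkn2c and Cdkn2d, 5 of 12393 genes on the array, chosen by gene name. They are read by 7 of 22626 probe sets, 2 each for Cdkn1a and Cdkn1b and 1 each for the others. RNA of the heart's left ventricle was measured in male mice, 2 to 4 months old, of the MRL/MpJ strain, in which punched ear holes close, and of the C57BL/6 strain, a common inbred laboratory strain whose substrain was not stated. In each strain 1 array held an untreated heart sample and 1 array each a sample taken 3, 30 or 60 days after the left anterior descending artery of the heart was closed with a ligature (LAD ligation) to cause an infarct. No engineered allele or drug was named for any group, the comparison hearts were untreated and not sham-operated, and the labels do not say whether an array held 1 animal or several, or how much of the tissue was scar.

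These genes encode proteins that bind and restrain the cyclin-dependent kinases, the engines that carry a cell through its division cycle. The Cip/Kip inhibitors p21 (Cdkn1a), p27 (Cdkn1b) and p57 (Cdkn1c) act on cyclin and kinase complexes of several phases. The INK4 inhibitors p18 (Cdkn2c) and p19 (Cdkn2d) bind Cdk4 and Cdk6 and keep them from D-type cyclins. Adult heart muscle cells seldom divide, and p21 and p27 are known to take part in their withdrawal from the cycle. Cdkn1a is of interest for MRL/MpJ because mice without this gene were reported to close ear holes, and low p21 was reported in cells of healing MRL mice.

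Cdkn1a is the classical target of p53, the damage-response factor, and RefSeq gives it more than 1 transcription start. Its promoters are therefore shown with that of Cdkn1b. By the brightest probe set of each gene, Cdkn1b had the largest difference of the members for days 30 and 60 minus day 3. Each line gives the 250 bases before a start, 5′ to 3′ (RefSeq, GRCm38.p6), in lower case with motif matches in capitals. On this build Cdkn1a spans chr17:29090979-29100722, Cdkn1b chr6:134920401-134925525, Cdkn1c chr7:143458339-143461059, Cdkn2c chr4:109660876-109666756 and Cdkn2d chr9:21288459-21291421. Cdkn1a on the plus strand has starts at 29090979 and 29093769 of chromosome 17, with windows chr17:29090729-29090978 and chr17:29093519-29093768. Cdkn1b, also on the plus strand, has its start at 134920401 of chromosome 6 and the window chr6:134920151-134920400.
Cdkn1a start 1: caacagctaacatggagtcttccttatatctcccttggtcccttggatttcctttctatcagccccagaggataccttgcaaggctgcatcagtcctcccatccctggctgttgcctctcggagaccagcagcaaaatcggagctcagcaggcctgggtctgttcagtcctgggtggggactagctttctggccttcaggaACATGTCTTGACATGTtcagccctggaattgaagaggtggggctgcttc
Cdkn1a start 2: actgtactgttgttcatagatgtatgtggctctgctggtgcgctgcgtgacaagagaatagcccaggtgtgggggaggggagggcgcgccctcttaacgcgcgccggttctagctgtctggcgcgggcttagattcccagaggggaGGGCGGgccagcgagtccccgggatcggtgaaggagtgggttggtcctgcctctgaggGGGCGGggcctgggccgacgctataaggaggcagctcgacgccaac
Cdkn1b: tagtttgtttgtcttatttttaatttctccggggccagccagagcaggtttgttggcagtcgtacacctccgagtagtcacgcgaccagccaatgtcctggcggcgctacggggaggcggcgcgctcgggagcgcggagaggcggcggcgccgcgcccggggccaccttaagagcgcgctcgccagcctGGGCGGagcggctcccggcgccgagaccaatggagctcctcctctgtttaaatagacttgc
In the window of the first Cdkn1a start, the capitals mark 2 copies of ACATGT with 4 bases between them, a paired form of the core that p53 sites centre on. They lie 49 to 34 bases before the start. This motif was chosen after the sequence was seen, and 4 of 32817 mouse promoter windows of the same length hold it (0.0122%). In the other windows the capitals mark GGGCGG, the GC box read by Sp1, with 2 matches at the second Cdkn1a start and 1 at Cdkn1b. The GC box was found in 35.6% of all promoter windows. Also searched were the TATA box TATAAA (in 13.6% of windows), the E-box CACGTG (7.15%), the FOXO motif TGTTTAC (3.65%), the E2F motifs TTTCGCGC (0.323%) and TTTGGCGC (0.515%), and AGGTCA, bound by Nr1d1 and ROR factors, (16.3%). The search covered both strands from 250 bases before to 50 after each start, and none of these matched in the 3 windows shown. Not printed here, the window of Cdkn2d held 5 GC boxes, the first Cdkn2c window 4, and the second Cdkn2c window 1 AGGTCA and 1 CACGTG. No match overlapped another. Of the 5 genes, 4 had a promoter in the RefSeq table, 6 windows in all, and Cdkn1c is named only. A match describes the letters of the window and is not a measured binding site.

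The deposited values are signal intensities on a linear scale, and the precision is limited by the number of arrays, 1 per strain and time point. Log2 values across the 8195 genes kept correlated at 0.88 to 0.95 between arrays other than C57BL/6 day 30, which had r of 0.84 to 0.88 with the others. For some member results in which this array is extreme, values without it are given too. All 11 cardiomyocyte markers, among them Myh6, the main myosin heavy chain of adult mouse ventricle, passed the filter on low signals, and Myh6 had 12351 to 22531 in every array. The 5 inhibitor genes also passed this filter, a signal of 121 or more in at least 2 of 8 arrays on the main probe set of the gene.

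Cdkn1a, which encodes p21, had signals of 402.2, 385.3, 419.5 and 510.0 in untreated, day 3, day 30 and day 60 MRL/MpJ hearts on probe set 1424638_at. In C57BL/6 hearts the signals were 450.2, 767.1, 723.4 and 310.3 at the same times. The MRL/MpJ arrays thus lay close together, while C57BL/6 held the highest values, on days 3 and 30, and the lowest, on day 60. The strains' values overlapped, and MRL/MpJ was higher in 1 of 4 time pairs. In whole ventricle, fewer cells of a type and less RNA per cell cannot be told apart, for this gene and the others.

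Set against each other as 1 array against 1, MRL/MpJ minus C57BL/6 was a log2 of -0.15 in untreated hearts, -0.94 on day 3, -0.75 on day 30 and 0.67 on day 60 for Cdkn1a. These values are on the scale of log2(signal + 28.6), as are all log2 differences here, and have no test. Within MRL/MpJ, days 3, 30 and 60 minus untreated were -0.06, 0.06 and 0.32 for Cdkn1a. Within C57BL/6 they were 0.73, 0.65 and -0.50. The day 3 difference was 1.92-fold, just short of the 2-fold limit, and larger in size than 92.2% of the differences of all genes in that pair. Background at this limit was 3.64% of genes higher and 3.09% lower in MRL/MpJ on day 3. The untreated, day 30 and day 60 differences of Cdkn1a were larger in size than 32.9%, 72.8% and 91.5% of those of all genes in their pairs.

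Over all 4 pairs the Cdkn1a difference was a log2 of -0.29 (SE 0.28, 95% interval -0.93 to 0.35), and it did not pass in limma (adjusted p = 0.82). Geometric mean signals were 426.9 in MRL/MpJ and 529.6 in C57BL/6 (4 arrays each). As a fold, the interval runs from 0.52 to 1.27 of the C57BL/6 level. Leaving out 1 array gave -0.34 without an untreated array, -0.08 without a day 3 array, -0.14 without a day 30 array and -0.61 without a day 60 array, the same for either strain's array. The Cdkn1a difference between strains in the ligated pairs minus that in the untreated pair was -0.19 in limma (SE 0.69, adjusted p = 1.0), and for the day 3 pair against the other pairs -0.87 (SE 0.59, adjusted p = 0.93).

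**Figure D1:**
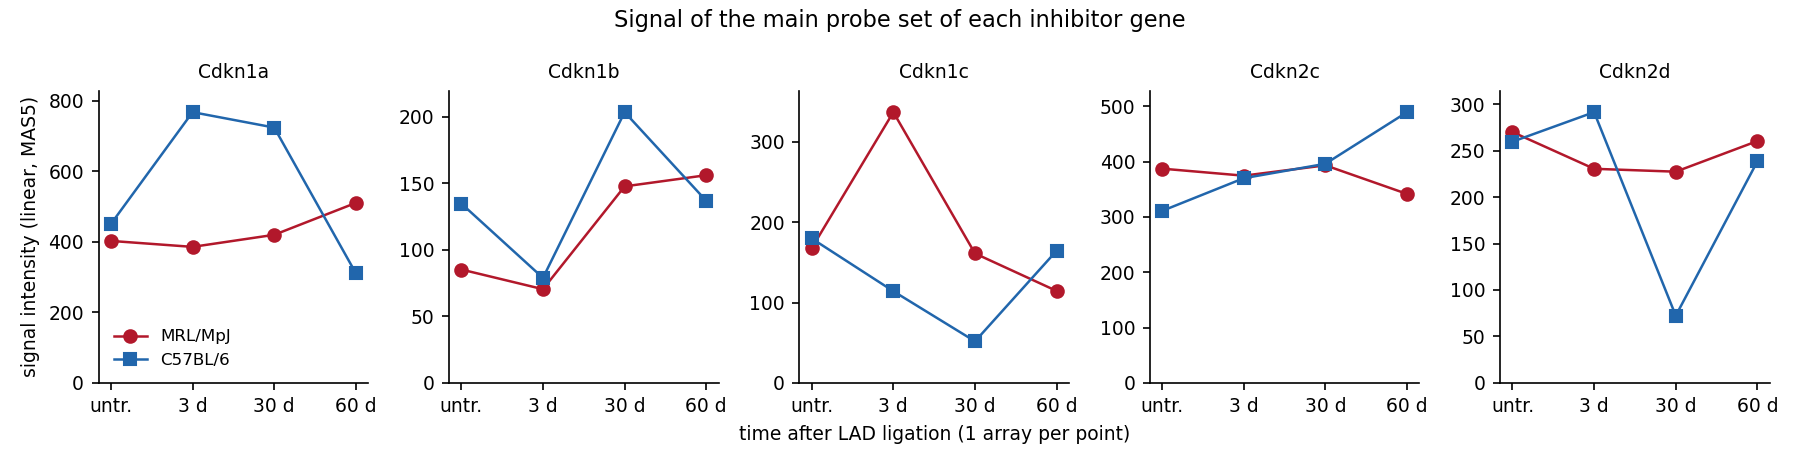
Signal intensity (linear scale, from 0) of the main probe set of each of the 5 inhibitor genes in untreated hearts and 3, 30 and 60 days after LAD ligation; each point is 1 array, circles MRL/MpJ and squares C57BL/6. Cdkn1a stayed between 385.3 and 510.0 in MRL/MpJ and spanned 310.3 to 767.1 in C57BL/6, and Cdkn2d was lowest in C57BL/6 day 30 with 72.3.

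The other Cdkn1a probe set, 1421679_a_at, had signals of 10.5, 24.9, 5.9 and 21.7 in MRL/MpJ (untreated, days 3, 30 and 60), and 19.1, 14.4, 29.6 and 17.7 in C57BL/6. It lay below the offset of 28.6 in 7 of 8 arrays and so gives no usable order of the samples. Its strain difference was -0.15 and its day 3 minus untreated difference 0.15 (limma over all probe sets, adjusted p = 0.91 and 1.0). Cdkn1a is therefore described by a single bright probe set. Averaging both probe sets gave a strain difference on day 3 of -0.31 in place of -0.94.

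Cdkn1b, which encodes p27, a brake on entry into DNA synthesis, was lowest on day 3 in both strains. Probe set 1434045_at had 85.2, 70.4, 147.7 and 156.1 in MRL/MpJ (untreated, days 3, 30 and 60), and 134.8, 78.9, 203.5 and 136.8 in C57BL/6. All 4 arrays of days 30 and 60 lay above both day 3 arrays. Days 30 and 60 together exceeded day 3 by a log2 of 0.87 (SE 0.22, 95% interval 0.35 to 1.39), which corresponds to geometric mean signals of 159.4 and 74.6. This did not pass in limma (adjusted p = 0.67, unadjusted p = 0.0052), where 0 of 8195 genes were called (0%) and 5.54% had an unadjusted p under 0.05. Arrays of days 30 and 60 all above both day 3 arrays were found for 4.33% of all genes. Without the C57BL/6 day 30 array the difference was 0.81 (adjusted p = 0.26). Over all probe sets, without a filter, the adjusted p in limma was 0.72 with all arrays.

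Against untreated, Cdkn1b stood at a log2 of -0.40 on day 3 (SE 0.26), 0.57 on day 30 (SE 0.26) and 0.36 on day 60 (SE 0.26), with adjusted p = 0.84, 0.46 and 0.66 in limma. The groups of 2 arrays did not overlap in any of these comparisons. The same held for 17.6% of genes lower on day 3, 18.6% higher on day 30 and 20.7% higher on day 60. As the filter signal was reached only in C57BL/6 untreated and the arrays of days 30 and 60, no support is drawn from these either. The strain difference was -0.22 (SE 0.18, 95% interval -0.64 to 0.21, adjusted p = 0.80 in limma), with MRL/MpJ higher in 1 of 4 pairs.

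The dimmer Cdkn1b probe set, 1419497_at, had another time course and had 49.2, 69.9, 45.9 and 70.5 in MRL/MpJ, and 58.8, 68.4, 57.3 and 111.8 in C57BL/6. There the day 30 arrays were the lowest of each strain, and days 30 and 60 minus day 3 was a log2 of -0.0090 (limma over all probe sets, adjusted p = 1.0). This probe set lay under the filter signal of 121 in all 8 arrays. The mean of both probe sets gave 0.43 for days 30 and 60 minus day 3. The same p27 gene thus gave different time courses by probe set, and which of them follows the transcript was not tested.

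**Figure D2:**
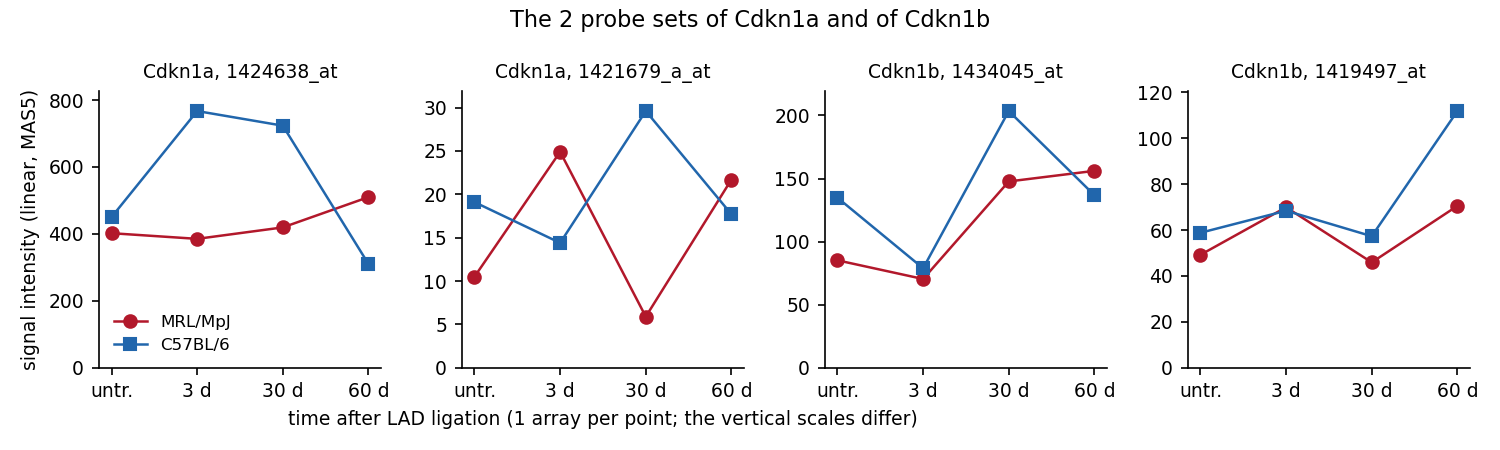
Signal intensity (linear scale, from 0, with a different vertical scale in each panel) of both probe sets of Cdkn1a and of Cdkn1b against time; each point is 1 array, circles MRL/MpJ and squares C57BL/6. The second Cdkn1a probe set reaches only 29.6, and the second Cdkn1b probe set is low on day 30, when the first is at 147.7 in MRL/MpJ and 203.5 in C57BL/6.

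Clock genes were set beside this Cdkn1b difference. Of 14 measured clock genes, 0 passed in limma for days 30 and 60 minus day 3. An unadjusted p under 0.05 was found for 6 of them, against 5.54% of all genes. Their median log2 was 0.36 against -0.05 over all genes. Nr1d1, a repressor of the clock loop that was reported to hold down Cdkn1a, had 511, 46.1, 318.7 and 564.7 in MRL/MpJ (untreated, days 3, 30 and 60), and 619, 359.6, 758.1 and 700.8 in C57BL/6. Its lowest array was thus MRL/MpJ day 3, where Cdkn1a had 385.3 on 1424638_at, against 310.3 to 767.1 over all arrays. The relation of Nr1d1 to Cdkn1a was not tested. Arntl, the activator Bmal1, lay on the other side, with 91.5 to 130.9 in MRL/MpJ and 63.7 to 100.6 in C57BL/6 on days 30 and 60, against 237.8 in MRL/MpJ and 251.4 in C57BL/6 on day 3. The hour of sampling was not given in the sources used here, and the part of the clock genes in the Cdkn1b difference was not tested.

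Cdkn1c, which encodes p57 and is expressed chiefly from the maternal allele, varied more than most genes, with an SD over the 8 arrays above that of 90.6% of genes. Probe set 1417649_at had 167.7, 337.1, 161.1 and 114.4 in MRL/MpJ (untreated, days 3, 30 and 60), and 179.8, 114.1, 51.7 and 164.6 in C57BL/6. The highest array was MRL/MpJ day 3 and the lowest C57BL/6 day 30. As 1 array against 1, MRL/MpJ minus C57BL/6 was a log2 of -0.09 in untreated hearts, 1.36 on day 3, 1.24 on day 30 and -0.43 on day 60. The day 3 and day 30 differences, 2.56-fold and 2.36-fold, passed the 2-fold limit, as did 3.64% and 6.14% of all genes in that direction.

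Over all pairs the Cdkn1c strain difference was a log2 of 0.52 (SE 0.33, 95% interval -0.24 to 1.28), and it did not pass in limma (adjusted p = 0.73). Leaving out 1 array gave 0.72 without an untreated array, 0.24 without a day 3 array, 0.28 without a day 30 array and 0.84 without a day 60 array. The day 3 pair departed from the other pairs by 1.12 (SE 0.67, adjusted p = 0.93 in limma), and the ligated pairs from the untreated pair by 0.81 (SE 0.76, adjusted p = 1.0, with 0.49 to 1.39 when a ligated array was left out). Day 30 minus untreated was -0.71 (SE 0.46, adjusted p = 0.56), and -0.23 without the C57BL/6 day 30 array. Both day 30 and both day 60 arrays lay below both untreated ones, as for 20.7% and 29.9% of all genes. Summed signals of the 10 fibroblast markers were highest in MRL/MpJ day 3, the array highest for Cdkn1c, with 68401, against 11862 to 40022 in the other arrays. The untreated arrays had the lowest sums, 11862 in C57BL/6 and 12686 in MRL/MpJ, with Cdkn1c at 179.8 and 167.7. C57BL/6 day 30, lowest for Cdkn1c, had a sum of 33610. The list was not uniform, as Pdgfra was highest in C57BL/6 day 30 and Vim in MRL/MpJ day 30. All 10 of these markers passed the filter, and their part in the Cdkn1c value was not tested.

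Cdkn2c, which encodes p18, was the steadiest of the 5, with an SD over the arrays above that of 9.14% of genes. Its signals were 387.1, 374.4, 393.1 and 341.4 in MRL/MpJ (untreated, days 3, 30 and 60), and 310.7, 369.8, 395.9 and 489.2 in C57BL/6. The strains were within a log2 of 0.02 of each other on days 3 and 30 and differed by 0.29 in untreated hearts and by -0.48 on day 60. The C57BL/6 values were in order of time, with day 60 at 1.53-fold of untreated. Over all pairs the strain difference was -0.05 (SE 0.19, 95% interval -0.48 to 0.39, adjusted p = 0.97 in limma). Day 3, day 30 and day 60 minus untreated were 0.09, 0.17 and 0.22, each with SE 0.26 and adjusted p = 0.97, 0.82 and 0.81 in limma. For Cdkn2c the widest of these intervals reaches a log2 of 0.83, so a change of 2-fold against untreated lies outside each of them. Both day 30 arrays lay above both untreated ones, as for 18.6% of all genes.

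Cdkn2d, which encodes p19 of the INK4 group, had 270.1, 230.5, 227.4 and 260.4 in MRL/MpJ (untreated, days 3, 30 and 60), and 259.7, 291.5, 72.3 and 238.6 in C57BL/6. A single array, C57BL/6 day 30, was low, and the other 7 lay between 227.4 and 291.5. In C57BL/6, day 30 minus untreated was a log2 of -1.51, or 0.35 of the untreated value, as 1 array against 1; 6.94% of all genes were at least 2-fold lower in this pair. In MRL/MpJ the same difference was -0.22, and both day 30 arrays lay below both untreated ones, as for 20.7% of all genes. Between the strains on day 30 Cdkn2d was 2.54-fold higher in MRL/MpJ, 1 array against 1. Both strains together gave -0.87 (SE 0.39, 95% interval -1.77 to 0.03), which did not pass in limma (adjusted p = 0.46); 1 of 8195 genes was called in this comparison (0.0122%). The difference was -0.17 without the C57BL/6 day 30 array (adjusted p = 0.87). It was -1.56 without the MRL/MpJ day 30 array (adjusted p = 0.048 in limma), a fit that then rests on the C57BL/6 day 30 array alone. In that fit 186 of 8195 genes were called and 29.3% had an unadjusted p under 0.05.

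C57BL/6 day 30, the array lowest for both Cdkn1c and Cdkn2d, had the highest summed cardiomyocyte marker signal, 386216 against 196012 to 275365 in the others. The list was not uniform in this array: Myl2, a ventricular myosin light chain, had 75193 there and 23390 to 35348 in the others, while Ckm, Tnni3 and Ryr2 (14844, 15771 and 2131) lay below both untreated arrays. The summed signal of 4 atrial markers was also highest there, 52359 against 4632 to 39309, through Nppa, a natriuretic peptide, with 41056. Myl4 was highest in MRL/MpJ day 60, and Myl7 and Sln in MRL/MpJ day 30. C57BL/6 day 30 also had the highest median signal over all probe sets, 139.5 against 112.8 to 129.55 in the others. Its highest single signal was 75193, against 26763 to 38118 in the others. The part of this wider spread of signals in the marker sums was not tested. All 11 cardiomyocyte and all 4 atrial markers passed the filter, and their part in the low values of Cdkn1c and Cdkn2d was not tested.

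**Figure D3:**
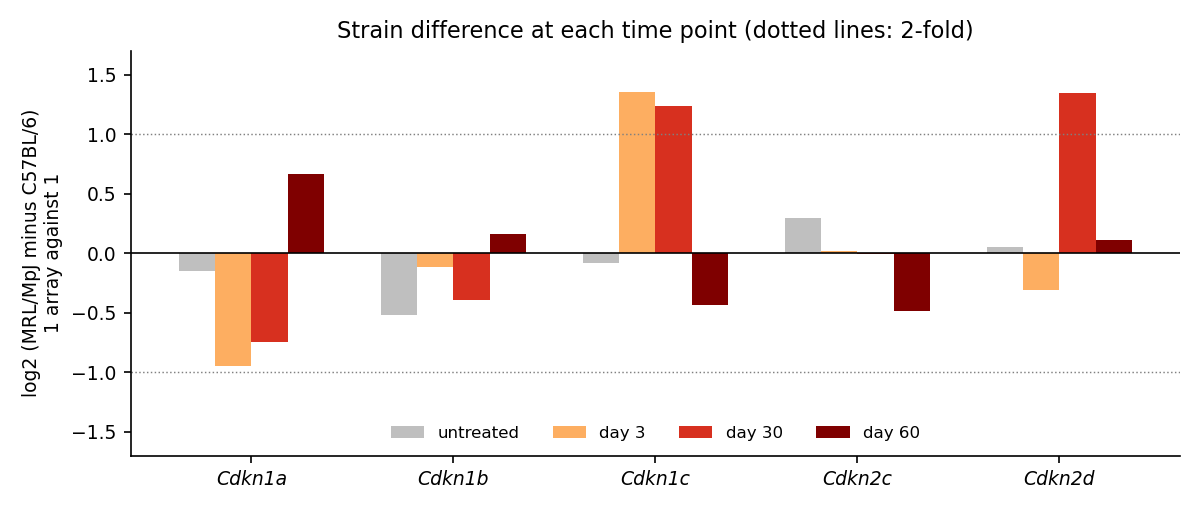
Log2 difference MRL/MpJ minus C57BL/6 of signal + 28.6 for the 5 inhibitor genes in untreated hearts and on days 3, 30 and 60, each bar 1 array against 1 and without error; dotted lines mark 2-fold. Cdkn1a bars lie below 0 except on day 60 (0.67), Cdkn1c bars reach 1.36 and 1.24 on days 3 and 30, and the Cdkn2d bar on day 30 reaches 1.34.

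Taking the 5 inhibitors as a group, 0 of 5 passed for the strain difference in limma, and 0 of 5 had an unadjusted p under 0.05. Over all genes 18 of 8195 were called (0.22%) and 7.96% had an unadjusted p under 0.05. The median log2 of the 5 was -0.05 against -0.02 over all genes, with 2 above and 3 below 0. For day 3 minus untreated 0 of 5 passed, with 0% called over all genes, and the median was 0.09 against 0.02. For day 30 it was 0 of 5 with 0.0122% called and a median of 0.17 against -0.01. For day 60 it was 0 of 5 with 0.0366% called and a median of -0.08 against -0.06. All ligated hearts together, set against untreated hearts, gave 0 of 5, with 0.195% called over all genes and adjusted p of 0.76 to 0.86 for the members. At an unadjusted p under 0.05 the count was again 0 of 5 in each comparison with untreated hearts, against 6.53%, 11% and 10.6% of all genes on days 3, 30 and 60 and 10.4% for all ligated hearts together. For the ligated pairs against the untreated pair and for the day 3 pair against the other pairs, 0 of 5 passed or had an unadjusted p under 0.05. Over all genes 0% were called in both, and 2.04% and 5.09% had an unadjusted p under 0.05. For days 30 and 60 minus day 3, 0 of 5 passed in limma and 1 of 5, Cdkn1b, had an unadjusted p under 0.05. Over all genes 0% were called there and 5.54% had such a p, and the median was -0.20 against -0.05.

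**Figure D4:**
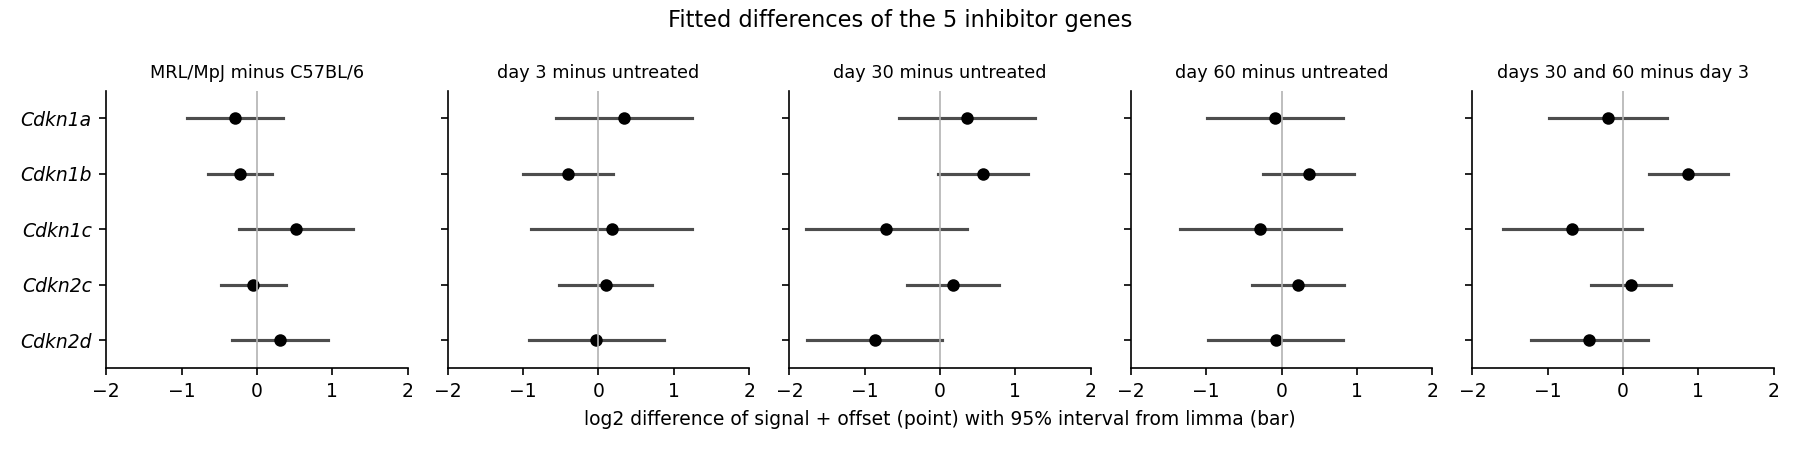
Fitted log2 differences of signal + 28.6 (points) with 95% intervals from limma (bars) for the 5 inhibitor genes in 5 comparisons, over 4 arrays against 4 for strain, 2 against 2 for each day, and 4 against 2 for the last panel. Intervals include 0 except that of Cdkn1b for days 30 and 60 minus day 3 (0.35 to 1.39).

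The members did not move as 1 block. Over the 8 arrays, which share the same scaling, Cdkn1a and Cdkn1c had r = -0.72 on the log2 scale, and r = -0.56 without C57BL/6 day 30. Cdkn1b and Cdkn1c had r = -0.68 and, without that array, -0.44. Cdkn1c and Cdkn2d had r = 0.63 with C57BL/6 day 30 and -0.62 without it, and Cdkn1a and Cdkn2d had r = -0.41 with it and 0.75 without it. These correlations over 8 or 7 arrays are descriptions without a test, and the sign of both Cdkn2d relations rests on a single array.

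Among kept genes that ranged over at least 1 on the log2 scale, those most like Cdkn1a over the 8 arrays were Apoa2 (r = 0.96), Xcr1 (0.94), Hoxa13 (0.91), 1700023D09Rik (0.89) and Kif12 (0.88), and those least like it were Utf1 (-0.96), Cenpx (-0.91) and Sema4b (-0.89). Most like Cdkn1b were Sltm (r = 0.94), Tgfbr3 (0.91), Plekhg5 (0.90), Ppp1r15a (0.90) and Crybb3 (0.88), and least like it Cyp2c38 (-0.92), Derl3 (-0.92) and Fam126a (-0.91). For Cdkn1c the closest were Nphs1 (r = 0.96), Parva (0.93), Tcf3 (0.92), Ndel1 (0.91) and Cysltr2 (0.91), and the most opposite Osbpl10 (-0.95), Stk19 (-0.94) and Ppm1d (-0.94). For Cdkn2c they were Mmp3 (r = 0.93), Rps6 (0.83), Inmt (0.81), Ccdc43 (0.80) and Rnase4 (0.78), and on the other side Slc31a2 (-0.84), Diras1 (-0.82) and Ninj2 (-0.80). The genes closest to Cdkn2d, Ccnt1 (r = 0.99), Herc2, Mterf3, Tcea1 (0.98 each) and Exosc9 (0.98), had r between 0.32 and 0.80 without C57BL/6 day 30. On the other side of Cdkn2d stood Rcl1 (r = -0.99), Bcl2l1 (-0.97) and Myl2 (-0.96), with -0.97, -0.43 and -0.76 in the same order without C57BL/6 day 30. Without that array, the genes named as closest to Cdkn1b had r of 0.82 to 0.93, and those closest to Cdkn1c 0.80 to 0.97. With 8 arrays and 3733 or 3734 genes compared for each member, these are descriptions, and nothing is drawn from them.

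The next list holds cyclins and kinases, Cdc25 phosphatases, which activate the kinases, and Pcna, the clamp of DNA replication. Of 10 measured genes, 0 were called in limma in any comparison, with 1 at an unadjusted p under 0.05 for the strain difference and for each day. Over all genes the shares were 7.96% for strain and 6.53%, 11% and 10.6% for days 3, 30 and 60. Cdk1, the kinase of mitosis, had 39.9, 138.2, 82.8 and 115.1 in MRL/MpJ (untreated, days 3, 30 and 60), and 42.8, 90.5, 211.1 and 158.1 in C57BL/6. All 6 ligated arrays lay above both untreated arrays, as for 6.71% of all genes, but Cdk1 reached the filter signal of 121 in ligated arrays only, so no support is drawn from this. The Cdk1 log2 differences from untreated were 1.01, 1.22 and 1.23 on days 3, 30 and 60 (adjusted p = 0.70, 0.33 and 0.30 in limma). Ccnd1, the D-type cyclin that drives Cdk4, the target of p18 and p19, had 659.3, 518.5, 577.7 and 623.5 in MRL/MpJ, and 1098, 1030, 1314 and 984.2 in C57BL/6. The strains' arrays did not overlap, as for 2.37% of genes lower in MRL/MpJ, and the difference was a log2 of -0.86 (adjusted p = 0.17 in limma).

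Downstream of these kinases, 0 of 5 measured pocket protein and E2F genes passed in limma in any comparison, with 0 at an unadjusted p under 0.05. Of 9 measured proliferation genes, 0 passed. At an unadjusted p under 0.05 there was 1 for strain, 0 for day 3, 1 for day 30 and 0 for day 60. The shares over all genes were 7.96%, 6.53%, 11% and 10.6% in the same order. On day 3 the proliferation list had a median log2 of 0.29 against 0.02 over all genes, with 7 of 9 above 0. Among these were Rrm2 (0.62) and Mcm3 (0.55), which serve DNA synthesis. Rrm2 reached the filter signal in the day 3 arrays only, and Mcm3 in ligated arrays only. No support is therefore drawn from their differences above 0, or from the day 3 median and count that include them. On day 30 Rrm2 stood at -0.93 (adjusted p = 0.39 in limma), the 1 gene counted for that day, and Mcm3 at 0.69. Mki67, the usual marker of cycling cells, lay under the filter, with 19.4 to 69.4 over all arrays. Of 16 measured genes of p53 and its targets, 0 passed in limma in any comparison. On day 3 the p53 list had a median of 0.15, with 2 genes at an unadjusted p under 0.05 (6.53% over all genes). Plk2 stood at 0.85 and Ccng1 at -0.70 relative to untreated on that day (adjusted p = 0.63 each), on opposite sides of 0.

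Of 12 measured genes that act in the turnover of the inhibitors, such as Skp2, which marks p27 for destruction, 0 passed in limma and 0 had an unadjusted p under 0.05 in any comparison. Among 19 measured transcription factors known to act on Cip/Kip genes, 0 passed, with 4 at an unadjusted p under 0.05 for strain (7.96% over all genes). Foxo3, an activator of Cdkn1b, had 680.2, 662.3, 806.5 and 1014 in MRL/MpJ (untreated, days 3, 30 and 60), and 265.1, 354.9, 385.5 and 412.8 in C57BL/6. Every MRL/MpJ array was above every C57BL/6 array, as for 1.82% of all genes. The Foxo3 difference was a log2 of 1.09 (adjusted p = 0.067 in limma). Cdkn1b stood at -0.22 in the same comparison, and the part of Foxo3 in the Cdkn1b values was not tested.

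Imprinted growth genes were followed because Cdkn1c is imprinted, and 0 of 12 measured passed in limma. Plagl1, an imprinted factor, stood at a log2 of 1.43, 1.38 and 1.57 above untreated on days 3, 30 and 60 (adjusted p = 0.34, 0.24 and 0.16). It had 41, 147, 134.6 and 265.1 in MRL/MpJ, and 61, 229.4, 229.1 and 159.3 in C57BL/6, and it too reached the filter signal in ligated arrays only. Of 8 glucocorticoid response genes 0 passed in limma. At an unadjusted p under 0.05 there was 1 for strain, 0 for day 3, 2 for day 30 and 2 for day 60. The shares over all genes were 7.96%, 6.53%, 11% and 10.6% in the same order. For the strain difference 0 of 14 clock genes passed, with 3 at an unadjusted p under 0.05 (7.96% over all genes).

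The INK4 genes next to each other on chromosome 4, Cdkn2a and Cdkn2b, encode further brakes and lay under the filter. Cdkn2b had 11.5, 43.7, 21.0 and 29.9 in MRL/MpJ (untreated, days 3, 30 and 60), and 17.5, 66.9, 18 and 48.9 in C57BL/6. Its day 3 difference from untreated was a log2 of 0.95 (limma over all probe sets, adjusted p = 0.66, unadjusted p = 0.0075), at signals near the offset. Cdkn2a had 54.3, 41.3, 88.0 and 82.4 in MRL/MpJ and 25.4, 41.4, 44.7 and 52.8 in C57BL/6, with a strain difference of 0.43 (adjusted p = 0.68 in the same fit). Cdkn2aipnl, the only other Cdkn-named gene that passed the filter, had a strain difference of 0.30 (adjusted p = 0.69 in limma).

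Markers of the cell types that whole ventricle can hold were tested in the same fits. For all ligated hearts against untreated hearts, 5 of 10 fibroblast markers rose in limma, with a median log2 of 1.73, and 0 fell, against 0.195% called over all genes. Without either untreated array or without C57BL/6 day 60, 0 of all genes were called in this comparison, and with quantile normalization or no filter, or without C57BL/6 day 30 or MRL/MpJ day 60, 1 gene in all was, so these calls depend on the setting. For the strain difference 1 of 5 smooth muscle markers, Myl9, was higher in MRL/MpJ, against 0.22% of all genes called. Myl9 had 1374.7 in MRL/MpJ and 395.9 in C57BL/6 untreated hearts. Of the 5 markers, 3 stood above and 2 below 0, so the list did not move as a whole. In all other comparisons and lists 0 markers passed, among 11 cardiomyocyte, 8 macrophage and monocyte, 4 neutrophil, 8 endothelial, 3 B cell, 3 adipocyte, 4 atrial and 2 red blood cell markers measured. The T cell list had 0 of 4 markers past the filter, with sums of 125.7 to 441.3. Macrophage and monocyte markers stood at a median log2 of 1.12 on day 3, when Cdkn1a stood at 0.34 and Cdkn1b at -0.40 over both strains. The part of these cell types in the members' values was not tested.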

How the data were processed

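The authors deposited MAS5 signal intensity per probe set on a linear scale (MAS5 per the submitters' processing notes), each array scaled as a whole, with medians of 112.8 to 139.5. Scaling target and detection calls were not given in the sources used here. Of 22626 probe sets, 20380 had 1 gene symbol in the platform annotation, 691 several and 1555 none. Signals entered as log2(signal + 28.6), and the probe set brightest on average stood for its gene, the offset being the 20th percentile of all values. Genes at 121 (the median) or more in at least 2 arrays were kept, 8195 in all. limma 3.58.1 in R 4.3.3 fitted strain and time point additively (3 residual degrees of freedom, 2 with an interaction term), with Benjamini-Hochberg adjustment over all genes kept, and 0.05 was the limit for calls. Since each group has 1 array, the error in these fits comes from the strain-by-time differences that the model leaves over. A time course particular to 1 strain counts there as error and raises SE and p-values. This spread may also be technical, and the fits cannot tell these apart. The procedure was tested on simulated data for the strain and day 3 comparisons only, with independent noise between arrays. No share recovered is reported here, so nothing is drawn from that test about differences of the members' size. Members and the 10 pathway and 11 marker lists were chosen with earlier results of these data known. By a fixed rule the text names all members, list genes with the largest differences (a choice among them) and the 5 most and 3 least similar genes; Mki67 and the cardiomyocyte and atrial markers named were picked after their values were seen. For 1 array against 1 there was no test. Alternatives were offsets of 16 and 64, other filters, quantile normalization, median centring, an intensity trend, other uses of probe sets, and leaving out each array. Where a list is counted, only genes with a probe set of a single symbol that passed the filter are measured. Figures were drawn with matplotlib 3.10.9.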

Additional observations from a re-analysis of the deposited data

How the results depend on the processing

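The strain comparison was paired by time point, the block in its fit. The labels give no replicate numbers, so no other pairing was made. Over 9 settings other than leaving out an array, 356 of 360 member values (5 genes, 8 comparisons) kept their direction and stayed short of the threshold. The other 4 turned sign near 0: Cdkn2c for strain (0.0088 with median centring), Cdkn1a for day 60 minus untreated (0.036 with the mean over probe sets), and, with median centring, Cdkn1b and Cdkn2c for the day 3 pair against the other pairs (-0.025 and -0.075). With no filter, the filter on mean signal, the intensity trend or all probe sets, a member's log2 difference stays as it was. Only its p-value could move under these settings, so their directions could not turn. The Cdkn1b difference of days 30 and 60 minus day 3 ranged over 0.43 to 0.95, lowest with the mean over probe sets. The causes were not tested.

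When each array was left out in turn, 36 of 300 member values turned sign, and 1 passed (Cdkn2d on day 30 without the MRL/MpJ array). These 300 values are not all separate. A difference of 1 day from untreated stays as it was when an array of another day is left out. For strain and for the comparisons of pairs, either array of a time pair gives the same value. The share that kept its sign is therefore no measure of stability. Ranges for values that turned sign were as follows. For Cdkn1a they were -0.095 to 0.77 on day 3, -0.73 to 0.55 on day 60, -0.013 to 0.41 for all ligated hearts, -0.64 to 0.23 for days 30 and 60 minus day 3, and -0.69 to 0.11 for the ligated pairs against the untreated pair. For Cdkn1b they were -0.027 to 0.38 for all ligated hearts and -9.2e-05 to 0.34 for the day 3 pair against the others. For Cdkn1c they were -0.38 to 0.73 on day 3, -0.92 to 0.35 on day 60 and -0.68 to 0.13 for all ligated hearts. For Cdkn2c they were -0.13 to 0.32, -0.054 to 0.40 and -0.072 to 0.51 on days 3, 30 and 60, -0.064 to 0.39 for all ligated hearts, -0.043 to 0.25 for days 30 and 60 minus day 3, -0.13 to 0.26 for the day 3 pair against the others and -0.16 to 0.10 for strain. For Cdkn2d they were -0.43 to 0.38 on day 3, -0.24 to 0.088 on day 60, -0.15 to 0.68 for the ligated pairs against the untreated pair and -0.047 to 0.50 for strain, and on day 30 the range was -1.56 to -0.17.

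The other ranges kept their sign. For Cdkn1a they were 0.052 to 0.66 on day 30, -0.61 to -0.077 for strain and -1.20 to -0.49 for the day 3 pair against the others. For Cdkn1b they were -0.60 to -0.20, 0.37 to 0.77 and 0.11 to 0.61 on days 3, 30 and 60, 0.74 to 0.99 for days 30 and 60 minus day 3, -0.35 to -0.12 for strain and 0.26 to 0.54 for the ligated pairs against the untreated pair. For Cdkn1c they were -1.19 to -0.23 on day 30, -1.23 to -0.11 for days 30 and 60 minus day 3, 0.24 to 0.84 for strain, 0.49 to 1.39 for the ligated pairs against the untreated pair and 0.78 to 1.62 for the day 3 pair against the others. For Cdkn2c the range was -0.54 to -0.29 for the ligated pairs against the untreated pair. For Cdkn2d they were -0.56 to -0.093 for all ligated hearts, -0.85 to -0.043 for days 30 and 60 minus day 3 and -1.03 to -0.39 for the day 3 pair against the others.

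The count of all genes called moved more. For strain (18) it was 28 with an offset of 64, 8 with no filter, 28 with the filter on mean signal, 11 with median centring, 43 with an intensity trend and 10 with the mean over probe sets, and 7 to 14 when an array was left out. For day 3 (0) it was 8, 14, 26 and 4 with the offset of 64, the mean filter, the trend and the mean over probe sets. For day 30 (1) it was 2, 6 and 24 with the first 3 of these and 0 with no filter or with all probe sets, and 0 to 186 when an array was left out, with 186 without MRL/MpJ day 30. For day 60 (3) it was 24, 24 and 75 with the offset of 64, the mean filter and the trend, 6 with median centring, and 0 with no filter or all probe sets, and 0 to 30 when an array was left out. For all ligated hearts (16) it was 28, 43 and 104 with the offset of 64, the mean filter and the trend, 1 with no filter or with quantile normalization, 10 with median centring and 3 with all probe sets, and 0 to 68 when an array was left out. For the day 3 pair against the others it was 0 to 3 when an array was left out. No member was among the genes called under any setting except the Cdkn2d value named above.

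Genes past 2-fold, 1 array against 1, numbered as follows with no filter: for MRL/MpJ 1044, 860 and 1013 on days 3, 30 and 60 (624, 459 and 608 with the filter), for C57BL/6 747, 2108 and 955 (308, 1217 and 472), and between the strains 645, 1061, 2188 and 592 in untreated, day 3, day 30 and day 60 hearts (298, 551, 1251 and 255). With an offset of 64 they were 269 for MRL/MpJ day 30, 191 and 292 for C57BL/6 days 3 and 60, and 174 and 158 between untreated and day 60 hearts of the strains. With the filter on mean signal they were 188 for C57BL/6 day 3 and 195 and 152 between untreated and day 60 hearts of the strains. Signal over background limits the dim probe sets of Cdkn1a and Cdkn1b and the genes Cdkn2a and Cdkn2b, whose differences the offset compresses.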
